A study of Mus musculus with 28 samples.

Results

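Growth hormone pulse dependent genes were followed in the liver of mice gavaged with nicotinamide mononucleotide (NMN), a precursor of NAD+, or with water. The set was a fixed list of 10 genes (Cyp4a12a, Cyp2d9, Cyp7b1, Hsd3b5, Elovl3, Slco1a1, Mup20, Selenbp2, Igf1 and Ghr) out of the 54446 genes counted in each library. The list was drawn up with earlier results of these data known, and members were then found by matching Ensembl identifiers to symbols. All mice were male and aged 8 weeks, of the strain given as C57BL/6 in the labels and as C57BL6J in the paper's methods. They were unmodified as far as the labels say, and gavage went on for 7 days. The daily dose of NMN was 1340 mg/kg in mice with 1 gavage a day and 2680 mg/kg in mice with 2 gavages a day, and each schedule had its own water mice. Each organ gave 4 NMN and 4 water libraries at 1340 mg/kg/d, and 3 and 3 at 2680 mg/kg/d. Dose and gavage number changed together and cannot be told apart. The libraries of the schedules also differed in other measures. Reads without a unique alignment were 10.1% to 12.8% in livers at 1340 mg/kg/d and 13.4% to 14.5% at 2680 mg/kg/d. The mitochondrial share in kidney was 8.92% to 10.6% and 19.8% to 21.6%. A difference between schedules cannot be told apart from a difference between these sets of libraries. The labels number the libraries of each group, and p-values measure the spread between them. Counted reads ran from 12688324 to 16455228 in the livers of the first schedule and from 17573184 to 20635269 in those of the second.

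The pituitary of the male mouse releases growth hormone in separate pulses, whereas release in the female is closer to continuous. Each pulse binds the growth hormone receptor on hepatocytes, activates the kinase JAK2 and sends the transcription factor STAT5b to the nucleus, and this rhythm maintains the male pattern of liver enzymes, transporters and urinary proteins. The same signal drives the hepatic supply of IGF1 to the blood, while SOCS2 and CISH, both made in response to STAT5, limit it. Growth hormone and phosphorylated STAT5 were not measured in these files, which hold transcript counts only.

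In the liver at 2680 mg/kg/d, 5 of the 10 genes fell with NMN (Hsd3b5, Slco1a1, Cyp4a12a, Cyp2d9 and Ghr), and none rose, where 4.03% of all tested genes were called lower and 7.08% in either direction. With 1 library left out the count was as low as 1, Hsd3b5. Hsd3b5 fell most, by 78.0%. Transcripts of Igf1, the best known product of the pathway, differed by 12.5% and did not pass the test. No member passed the test at 1340 mg/kg/d, where Hsd3b5 was 39.1% lower. In the kidney 1 of the 8 members tested at 2680 mg/kg/d was called, Cyp2d9, which was higher with NMN, where 0.118% of all genes were called higher. That call was lost in 3 of 6 fits with 1 library left out. In kidney at 1340 mg/kg/d the main edgeR fit called no member, where 0.12% of all genes were called. DESeq2 called 1 member there and also more of all genes than edgeR, with counts in the section on processing.

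The promoters of the called members are shown because these genes fell together. RefSeq promoter windows were held for 6 of the 10 members and not for Cyp4a12a, Cyp7b1, Elovl3 and Mup20. Each line below is the RefSeq sequence on build GRCm38.p6 upstream of an annotated start, 5′ to 3′ on the strand of the gene, without the bases that GENCODE places in an exon. Hsd3b5 lies on the minus strand at chr3:98645535-98645784, and Slco1a1 on the minus strand at chr6:141946963-141947212. Cyp2d9 lies on the plus strand at chr15:82452127-82452333. Ghr has 2 starts on the minus strand, with upstream sequence at chr15:3583493-3583602 and chr15:3581843-3582092. Capitals mark letters that match the STAT palindrome with 4 free letters between TTC and GAA, or TATAA in the 40 bases before the start.
Hsd3b5: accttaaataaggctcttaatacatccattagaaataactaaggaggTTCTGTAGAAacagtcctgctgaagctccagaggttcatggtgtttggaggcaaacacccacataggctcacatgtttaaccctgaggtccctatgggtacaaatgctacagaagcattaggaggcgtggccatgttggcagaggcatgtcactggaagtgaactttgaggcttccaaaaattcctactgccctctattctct
Slco1a1: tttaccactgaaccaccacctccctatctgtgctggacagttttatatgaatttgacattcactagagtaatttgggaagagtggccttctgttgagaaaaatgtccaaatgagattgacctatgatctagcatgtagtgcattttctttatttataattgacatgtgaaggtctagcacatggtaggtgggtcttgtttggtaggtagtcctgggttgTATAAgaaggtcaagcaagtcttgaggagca
Cyp2d9: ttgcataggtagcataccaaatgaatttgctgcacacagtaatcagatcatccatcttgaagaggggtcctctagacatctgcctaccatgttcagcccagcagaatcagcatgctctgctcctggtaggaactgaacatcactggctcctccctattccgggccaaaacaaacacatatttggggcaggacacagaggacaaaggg
Ghr, first start: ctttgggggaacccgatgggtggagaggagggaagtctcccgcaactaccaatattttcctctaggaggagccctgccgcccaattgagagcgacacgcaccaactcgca
Ghr, second start: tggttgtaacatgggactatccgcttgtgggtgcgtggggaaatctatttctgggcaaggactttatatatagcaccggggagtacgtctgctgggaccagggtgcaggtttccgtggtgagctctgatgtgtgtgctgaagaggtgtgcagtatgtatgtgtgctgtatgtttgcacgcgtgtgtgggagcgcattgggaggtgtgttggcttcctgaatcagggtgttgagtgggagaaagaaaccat

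The palindrome most used by STAT5, TTCNNNGAA, reads the same on both strands and was in none of the full 250-base windows of the 6 members, against 7.02% of 32851 RefSeq promoters of the same length. The form with 4 free letters was in the Hsd3b5 window, beginning 203 bases before the start, against 5.85% of promoters. The bases after this RefSeq start were not found in a GENCODE transcript of Hsd3b5, unlike those of the other 5 genes, so the distance holds for the RefSeq start only. The Igf1 window lies wholly in annotated exon. TATAA was searched on the gene's strand only. It stood 31 bases before the start of Slco1a1 and 26 bases before that of Cyp2d9, there within 43 bases that belong to an annotated exon and are not printed. Of all promoters, 4.23% held it in these 40 bases. These are matches of letters in short windows and say nothing about binding elsewhere around the genes.

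All 10 members were well expressed in the liver. Scaled for exon length, Mup20 was the most abundant in the 7 water mice at 2527 CPM per kb (CPM are counts scaled to a common TMM library size, here per kilobase of exon) and ranked 26th of 13408 genes. Cyp2d9 followed at 625 CPM per kb, Selenbp2 at 426 and Hsd3b5 at 258. Elovl3 stood at 161, Cyp7b1 at 108 and Slco1a1 at 84.8 CPM per kb. The lowest were Igf1 at 67.5, Ghr at 61.1 and Cyp4a12a at 55.0 CPM per kb, the last still 798th of 13408. This order is of means over both schedules and did not hold in each. Selenbp2 was 610 CPM per kb in the water mice at 1340 mg/kg/d and 180 at 2680 mg/kg/d, whereas Hsd3b5 was 221 and 308. The Selenbp2 and Elovl3 means include water replicate 1 of 1340 mg/kg/d, the highest of its group in both genes. All 9 hepatocyte markers were present in every liver library, with Alb the most abundant.

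Some of these transcripts share sequence with close relatives, which affects how reads are assigned. Of all 75-base windows of the longest transcript, 43.6% in Mup20, 40.8% in Cyp4a12a, 34.6% in Selenbp2, 16.7% in Cyp2d9 and 11.7% in Hsd3b5 also occur in another gene. For Cyp4a12a the other gene is Cyp4a12b, and for Selenbp2 it is Selenbp1. In Slco1a1 the share was 1.5%, and in Igf1, Ghr, Cyp7b1 and Elovl3 it was 0. Reads that align to more than one place were not counted, so the values of Mup20, Cyp4a12a and Selenbp2 are uncertain to that extent. Counting ignored strand. Cyp2d9 also overlaps the annotated genes Gm46501 and Gm27622 on its own strand, and Elovl3 overlaps Pitx3 on the other strand by 10 bases.

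Liver libraries that stood apart are named before the results. At 1340 mg/kg/d, water replicate 1 had the highest Elovl3, Cyp7b1, Selenbp2, Mup20 and Cyp4a12a of its group, and the summed level of 17 clock genes was 414 CPM against 809 to 1008 CPM in the other 3 water mice. Water replicate 1 at 2680 mg/kg/d likewise had high Elovl3 and a clock sum of 421 CPM against 748 and 784 CPM. NMN replicate 1 at 2680 mg/kg/d had 12.9 CPM of 7 kidney markers, against 0.728 to 3.90 CPM in the other 5 livers of that schedule, and 4454 CPM of 12 fasting response genes against 10068 and 10189 CPM in the other 2 NMN mice. Its mitochondrial share was 9.24% against 5.74% to 7.37% in those 5 livers. NMN replicate 4 at 1340 mg/kg/d had 29.3% of reads in rows naming no gene against 18.6% to 21.9% in the other 7 livers, and without it 0 members were called, as with it. The labels do not give the time of day of tissue collection.

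Hsd3b5 encodes a 3-ketosteroid reductase of male liver. At 2680 mg/kg/d it was 517, 439 and 477 CPM in the water mice and 105, 153 and 59.6 CPM in the NMN mice. The highest NMN mouse was well below the lowest water mouse. The water mean was 478 ± 39.2 CPM and the NMN mean 106 ± 46.6 CPM (SD, 3 mice each). On the log2 scale the fold change was -2.18 (SE 0.30, adjusted p = 0.00605 from edgeR). With each library left out in turn, Hsd3b5 remained past the threshold in all 6 fits.

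Slco1a1 encodes an organic anion transporter of the sinusoidal membrane that takes up bile acids and steroid conjugates. It was 389.6, 419 and 544 CPM in the water mice at 2680 mg/kg/d and 169, 286 and 211 CPM in the NMN mice, again without overlap. Its fold change was -1.03 on the log2 scale (SE 0.20, adjusted p = 0.0161 from edgeR), a call lost without water replicate 2, water replicate 3 or NMN replicate 3.

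Cyp4a12a encodes the main male ω-hydroxylase of arachidonic acid. It was 129.8, 120.3 and 131 CPM with water and 43.1, 47.9 and 87.1 CPM with NMN at 2680 mg/kg/d. The water mice were close to each other, and all 3 NMN mice lay below them. Its fold change was -1.11 on the log2 scale (SE 0.24, adjusted p = 0.0245 from edgeR), but the call was lost in a fit of all 14 livers together (adjusted p = 0.14) and without any 1 of the 3 water mice. Its near copy Cyp4a12b was 51.3 ± 8.18 CPM (SD, n = 3) with water and 50.7 ± 12.4 CPM (SD, n = 3) with NMN.

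Cyp2d9 encodes the testosterone 16α-hydroxylase of male liver. It was 1469, 1898 and 1726 CPM with water and 634, 1135 and 1098 CPM with NMN at 2680 mg/kg/d. NMN replicate 1 was the lowest, and the groups did not overlap. The log2 fold change was -0.84 (SE 0.21, adjusted p = 0.0389 from edgeR) with all libraries and -0.62 (adjusted p = 0.0277) without that replicate. The call was lost without any 1 of the water mice or without NMN replicate 3, with an adjusted p of up to 0.144.

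Ghr encodes the growth hormone receptor itself, and its transcripts also carry the soluble binding protein by alternative splicing. It was 567, 551 and 691 CPM with water and 419, 371 and 435 CPM with NMN at 2680 mg/kg/d. The change was the smallest of the 5, a fall of 32.6%, yet the groups were apart. Its fold change was -0.57 on the log2 scale (SE 0.14, adjusted p = 0.0374 from edgeR). This was the least stable of the 5 calls, lost in 5 of 6 fits with 1 library left out and kept only without NMN replicate 1.

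The 5 called genes, of 12477 tested in all, were also the 5 members for which every NMN mouse was below every water mouse, a pattern held by 15.4% of tested genes. For a single gene, 3 mice against 3 cannot give an exact permutation p below 0.1. With 1 library left out, the number of members called ranged from 1 to 5. It was 2 without water replicate 1, 1 without water replicate 2 or 3, and 2 without NMN replicate 3. All 5 remained past the threshold without NMN replicate 1, the mouse with the kidney markers.

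**Figure D1:**
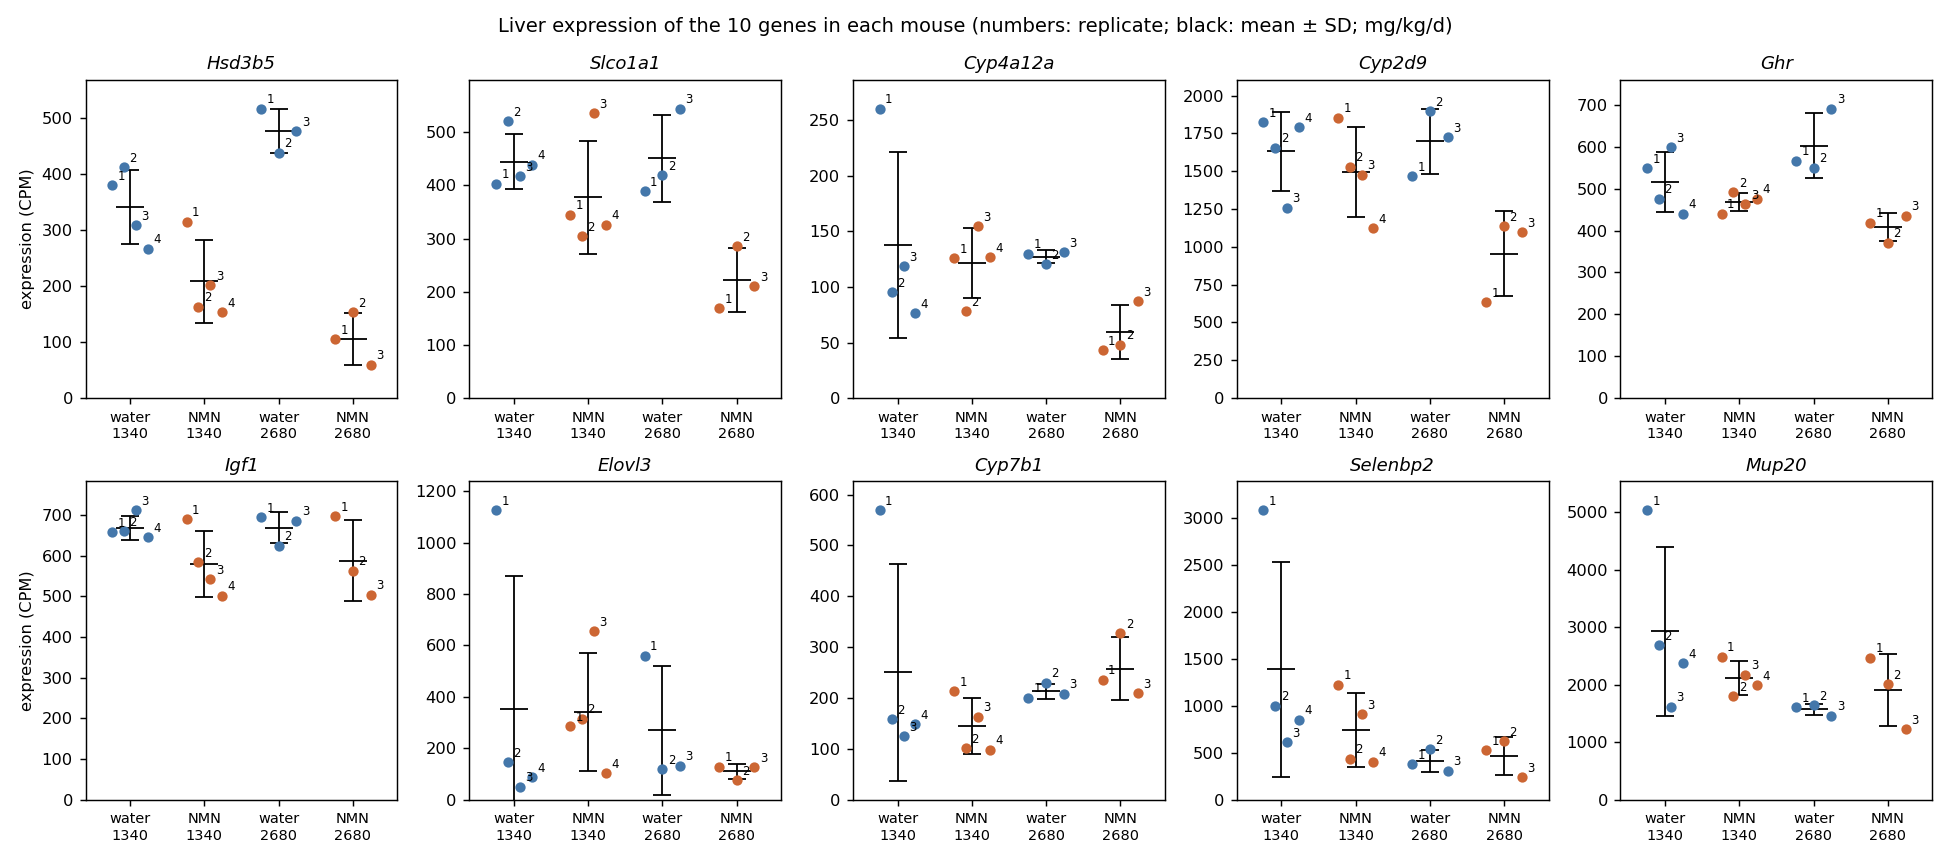
Expression of the 10 genes in each liver, in CPM on a linear axis from 0, for water (blue) and NMN (orange) mice of the 1340 and 2680 mg/kg/d schedules. Numbers are replicate labels and black marks are the mean ± SD of 4 or 3 mice, and the top row shows the 5 called genes, with the NMN mice of 2680 mg/kg/d below their water mice.

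The other members did not pass the test at 2680 mg/kg/d, and they did not share a direction. Igf1, the circulating growth factor that growth hormone induces in hepatocytes, was 695, 624 and 686 CPM with water and 697, 563 and 504 CPM with NMN. NMN replicate 1 was just above the highest water mouse and the other 2 were below the lowest. The log2 fold change was -0.19 (SE 0.15, adjusted p = 0.458 from edgeR), and -0.34 (adjusted p = 0.167) without NMN replicate 1.

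Elovl3, an elongase of very long fatty acids whose liver level follows the clock, was 560.0, 118 and 132 CPM with water and 128, 76.7 and 126 CPM with NMN. Its log2 fold change was -1.29 (SE 0.70, adjusted p = 0.329 from edgeR) and ranged from -1.65 to -0.19 with 1 library left out. It was -0.32 once the libraries numbered 1, the high water mouse among them, were left out of both groups.

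Cyp7b1, the oxysterol 7α-hydroxylase, was 213 ± 15.1 CPM (SD, n = 3) with water and 257 ± 61.9 CPM (SD, n = 3) with NMN at 2680 mg/kg/d. Mup20, the male urinary pheromone darcin, was 1571 ± 97.0 and 1901 ± 627 CPM. Selenbp2, a selenium binding protein of male liver, was 409 ± 116 and 463 ± 200.4 CPM. The 3 genes had log2 fold changes of 0.26, 0.27 and 0.17, with adjusted p of 0.377, 0.488 and 0.827 from edgeR, and their groups overlapped. The median log2 fold change over the 10 members was -0.70, and over all tested genes it was 0.00.

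At 1340 mg/kg/d, 0 of the 10 members passed the adjusted threshold in edgeR or in DESeq2, where 0.0161% of 12449 genes did in edgeR. The mean was lower with NMN in all 10, with a median log2 fold change of -0.22 beside -0.00 for all tested genes. Hsd3b5 was the only member with an unadjusted p under 0.05, which 854 of 12449 genes had. It was 380.0, 412, 309 and 267 CPM in the water mice and 315, 163, 201 and 154 CPM in the NMN mice, so that only NMN replicate 1 reached into the water range. The log2 fold change was -0.71 (SE 0.22, adjusted p = 0.478 from edgeR).

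Ghr was 549, 476, 599 and 441 CPM with water and 440.4, 491, 462 and 476 CPM with NMN in this schedule, a log2 fold change of -0.14 (SE 0.13). Igf1 was 657, 659, 711 and 645 CPM with water and 689.6, 584, 542 and 502 CPM with NMN. NMN replicate 1 was in the water range here, and every other NMN mouse was below it. Its log2 fold change was -0.21 (SE 0.13, adjusted p = 0.815 from edgeR).

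Slco1a1, Cyp4a12a and Cyp2d9, called in the other schedule, had log2 fold changes of -0.24 (SE 0.18), -0.18 (SE 0.40) and -0.12 (SE 0.17) at 1340 mg/kg/d. Their groups overlapped, as did those of all 10 members, while 1.75% of tested genes had every NMN mouse below every water mouse. Cyp7b1, Selenbp2 and Mup20 were 42.2%, 46.3% and 27.7% lower in the fit. Those values rested on water replicate 1. Without it the log2 fold change was 0.00136 for Cyp7b1, -0.15 for Selenbp2 and -0.08 for Mup20, and that of Elovl3 went from -0.05 to 1.84 and that of Cyp4a12a to 0.32, none of them past the threshold.

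Averaged over the schedules, each against its own water mice, 4 members were called, and all 4 were lower. The background was 8.53% of 13412 genes called and 4.47% called lower. Hsd3b5 fell by 63.3% (log2 fold change -1.44, SE 0.21, adjusted p = 0.00136 from edgeR), Slco1a1 by 35.4% (adjusted p = 0.0128), Cyp2d9 by 28.2% (adjusted p = 0.0446) and Ghr by 21.6% (adjusted p = 0.0261). Cyp2d9 was the least secure of them, since it lost the call in 11 of 14 fits with 1 library left out. Uncalled were Cyp4a12a, at -0.64 on the log2 scale (adjusted p = 0.175), and Igf1, at -0.20 (SE 0.10, adjusted p = 0.213).

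The difference between the schedules was tested directly. No member passed edgeR's adjusted threshold, which 0.0746% of genes did. Hsd3b5 came closest, with a log2 fold change 1.46 lower at 2680 than at 1340 mg/kg/d (log2 difference -1.46, SE 0.41, adjusted p = 0.287). DESeq2 called 1 member for this difference and also more of all genes than edgeR. Slco1a1, Cyp2d9 and Ghr had differences of -0.79, -0.70 and -0.42 with unadjusted p of 0.0137, 0.0228 and 0.0370. These unadjusted values are 4 of 10 members at p under 0.05, beside 1154 of 13412 genes. The larger fall at 2680 mg/kg/d is therefore a difference in fitted values that did not pass the test.

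**Figure D2:**
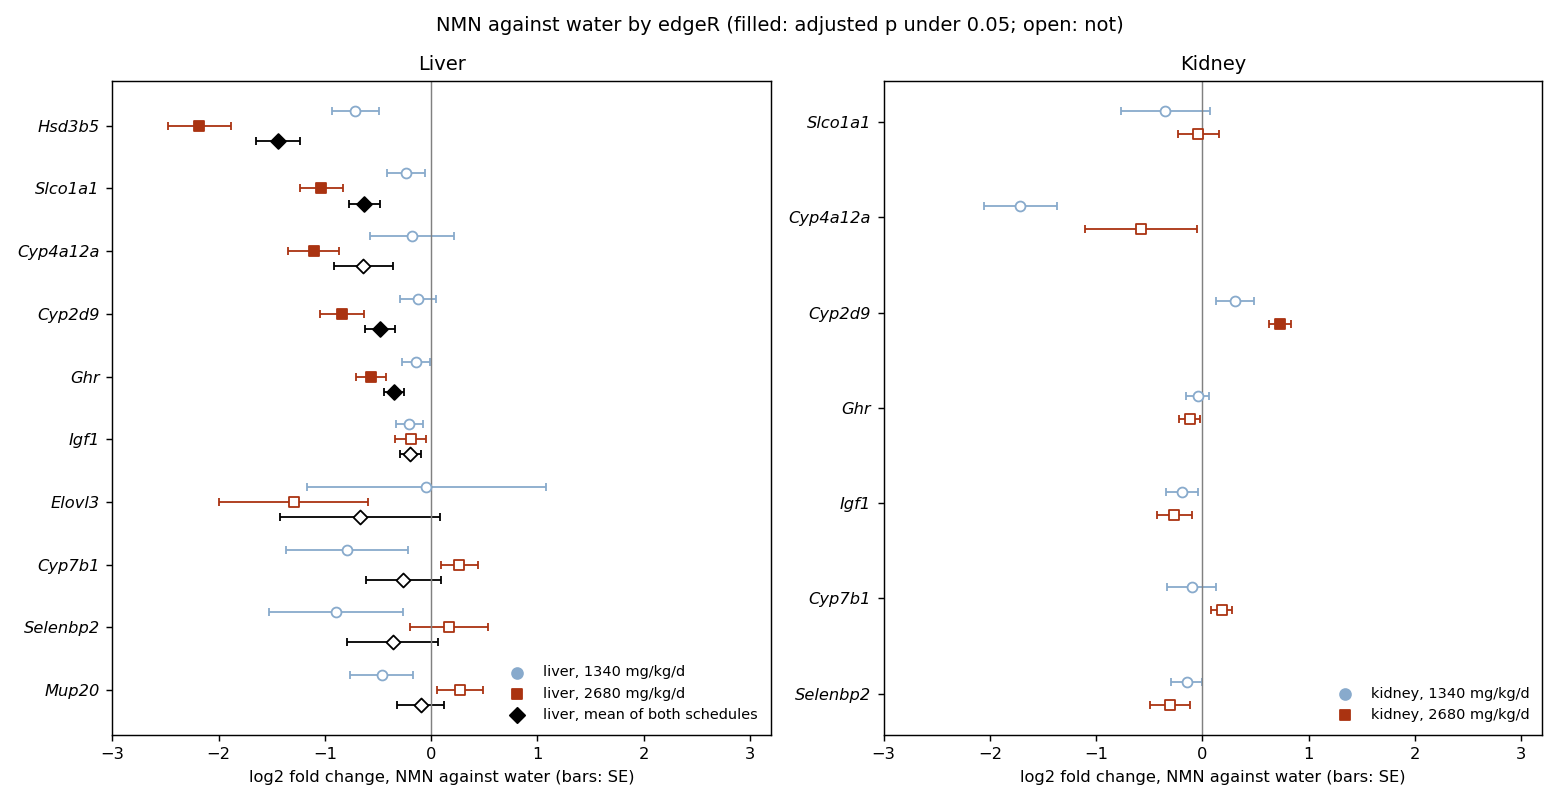
Log2 fold change of NMN against water for the members in liver (left; 1340 mg/kg/d, 2680 mg/kg/d and their mean) and in kidney (right; both schedules), with bars for the SE and filled symbols for an adjusted p under 0.05. In liver the filled symbols all lie left of 0, from -2.18 for Hsd3b5 to -0.35 for Ghr, and in kidney the single filled symbol is Cyp2d9 at 0.73.

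The members differed in how they varied together between mice. Correlations are described over 14 livers, on log2 CPM, with no test, since the points share libraries, depth and groups. After removal of the schedule means only, Hsd3b5 had r = 0.809 with Slco1a1, 0.723 with Cyp2d9 and 0.68 with Ghr. After removal of each group's mean these were 0.297, 0.221 and -0.309, so most of that likeness lay between NMN and water mice. For other pairs the likeness was present within groups. There r was 0.927 for Cyp7b1 with Selenbp2, 0.888 for Mup20 with Selenbp2 and 0.823 for Cyp7b1 with Mup20. Without water replicate 1 of 1340 mg/kg/d these were 0.913, 0.788 and 0.566. Hsd3b5 also varied with these genes within groups, with r = 0.698 for Selenbp2, 0.548 for Cyp7b1 and 0.564 for Mup20, and 0.814, 0.799 and 0.676 without that library.

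Elovl3 ranged from 51.5 to 1126 CPM over the 14 livers. The livers with the lowest clock sums, water replicate 1 of each schedule at 414 and 421 CPM, had 1126 and 560.0 CPM of Elovl3. NMN replicate 3 at 1340 mg/kg/d had 656 CPM of Elovl3 at a clock sum of 684 CPM, within the range of the other livers. The liver with the highest clock sum, 1008 CPM, had the lowest Elovl3, 51.5 CPM. Hsd3b5 did not follow this order, with 380.0 and 517 CPM in the livers of lowest clock sum and 59.6 CPM at a clock sum of 610 CPM. The mean clock sum at 2680 mg/kg/d was 651 ± 200.1 CPM (SD, n = 3) with water and 639.6 ± 54.9 CPM (SD, n = 3) with NMN. Of the 17 genes 8 were higher and 9 lower with NMN there, so like sums do not mean like clock states. In kidney at 1340 mg/kg/d the clock sum was 1018 ± 141 CPM with water and 1366 ± 126.5 CPM with NMN (SD, n = 4 each), without overlap. In both liver schedules and in kidney at 2680 mg/kg/d the groups overlapped in the clock sum. Its part in the members' values was not tested.

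**Figure D3:**
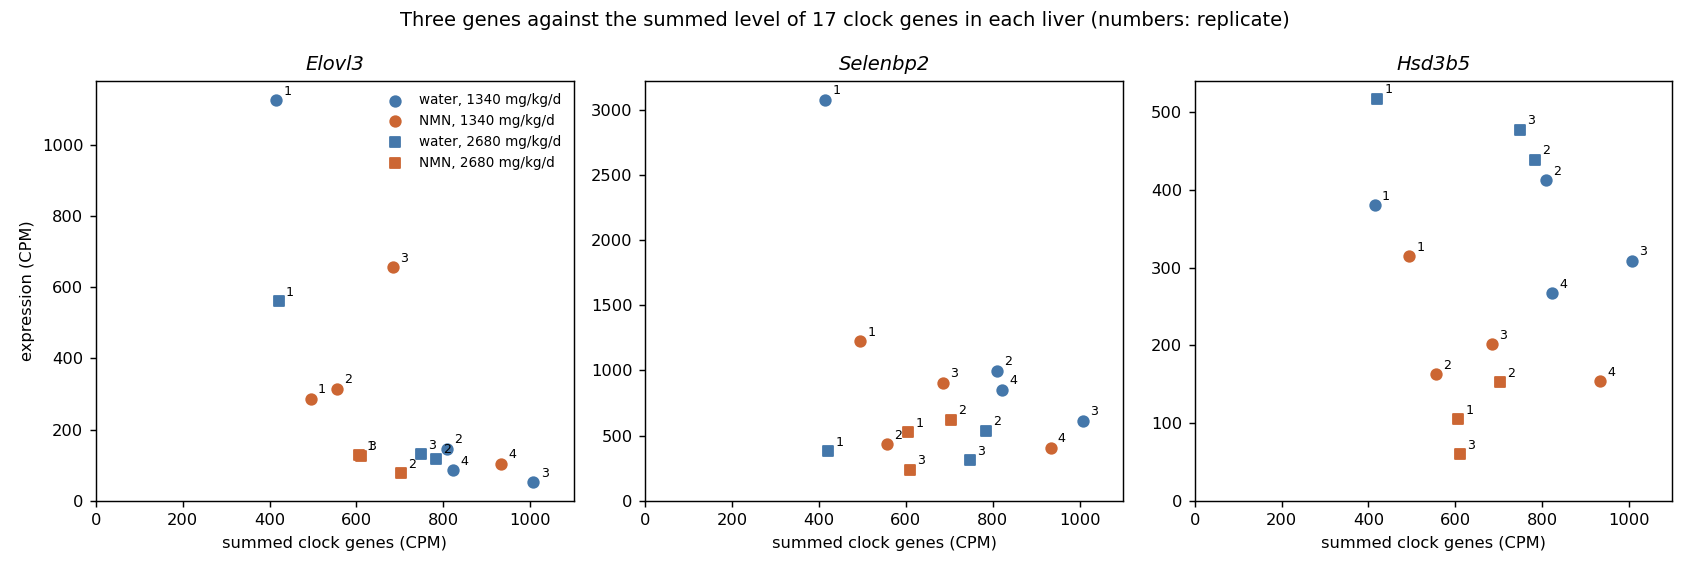
Expression of Elovl3, Selenbp2 and Hsd3b5 (vertical axes, CPM) against the summed CPM of 17 clock genes (horizontal axis) in each of the 14 livers, with numbers for the replicate. Elovl3 is high in the livers with a clock sum of 414 and 421 CPM and in NMN replicate 3 at 684 CPM, whereas Hsd3b5 separates by treatment at 2680 mg/kg/d, with water from 439 CPM upward and NMN up to 153 CPM.

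The genes whose pattern was most like the mean member profile over the 14 livers were Prkaca (r = 0.944), Nans (0.943), Serpina3k (0.923), Tsc22d1 (0.922) and Sept9 (0.917), among 11585 genes compared. The most opposite were 5031425E22Rik (r = -0.955), Herc6 (-0.924), 0610010F05Rik (-0.922), Fam234b (-0.917) and Tmem106b (-0.917). For Igf1 the most alike were Ggact (0.886) and Nrep (0.879), and for Ghr Car14 (0.906) and Gpc1 (0.88) were among the most alike. Only schedule means were removed here, so these r include the difference between NMN and water mice. They are the extremes of 11585 genes over 14 livers and were not tested.

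Of 12 tested genes of growth hormone signalling and feedback, Ghr alone was called at 2680 mg/kg/d, where 7.08% of all genes were, and none at 1340 mg/kg/d, where 0.0161% were. Over both schedules 2 were called higher and Ghr lower, beside 8.53% of all genes called. In the average over schedules Jak2, the receptor's kinase, had a log2 fold change of 0.13 (SE 0.19), Stat5b of 0.33 (SE 0.15) and Stat5a of -0.20 (SE 0.18), with adjusted p of 0.169 or higher. Stat3, a sister factor that also answers interleukin 6, rose by 0.50 (adjusted p = 0.0187 from edgeR), and Ptpn11, the phosphatase SHP2, rose by 0.41 (adjusted p = 0.0325). Ptpn11 lost the call in 7 of 14 fits with 1 library left out, and Stat3 lost it without water replicate 1 or 2 of 2680 mg/kg/d.

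Cish, Socs2 and Socs3 were not called. Cish was 2.56, 8.73, 40.2 and 49.95 CPM in water mice and 13.6, 3.42, 2.63 and 6.66 CPM in NMN mice at 1340 mg/kg/d. It was 25.6, 2.42 and 12.4 CPM with water and 13.1, 2.09 and 3.32 CPM with NMN at 2680 mg/kg/d. Water mice of the same group thus ranged widely, and the log2 fold change over both schedules was -1.55 (SE 0.78, adjusted p = 0.253 from edgeR). Socs2 had 0.47 (SE 0.64) and Socs3, an inhibitor induced by several cytokines, 0.55 (SE 0.45), neither of them called.

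In the IGF axis, Igfals and Igfbp2 were called at 2680 mg/kg/d, and none of the 11 tested genes at 1340 mg/kg/d. Igfals encodes the acid-labile subunit, which holds IGF1 in its large circulating complex and is itself a growth hormone target. It was 145, 135 and 128 CPM with water and 42.1, 60.2 and 39.4 CPM with NMN at 2680 mg/kg/d, without overlap. The log2 fold change was -1.54 (SE 0.18, adjusted p = 0.00123 from edgeR) in that schedule, -0.46 (adjusted p = 0.624) at 1340 mg/kg/d and -0.99 (adjusted p = 0.000309) over both.

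Igfbp2, a binding protein that keeps IGF1 from its receptor, went the other way. It was 692, 669 and 514 CPM with water and 1590.0, 2018 and 2222 CPM with NMN at 2680 mg/kg/d. Every NMN mouse had more than every water mouse, and the log2 fold change was 1.63 (SE 0.17, adjusted p = 0.000645 from edgeR). The value at 1340 mg/kg/d was 0.57 (adjusted p = 0.809). Igfbp1, a binding protein that insulin represses, was 808, 391, 83.3 and 27.5 CPM with NMN at 1340 mg/kg/d and 157, 12.8, 31.9 and 30.1 CPM with water. With such spread its log2 fold change of 1.73 over both schedules (SE 0.80, adjusted p = 0.213) was not called. Of 11 tested genes of the axis, 1 was called higher and 1 lower at 2680 mg/kg/d, namely Igfbp2 and Igfals, beside 3.05% and 4.03% of all genes.

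**Figure D4:**
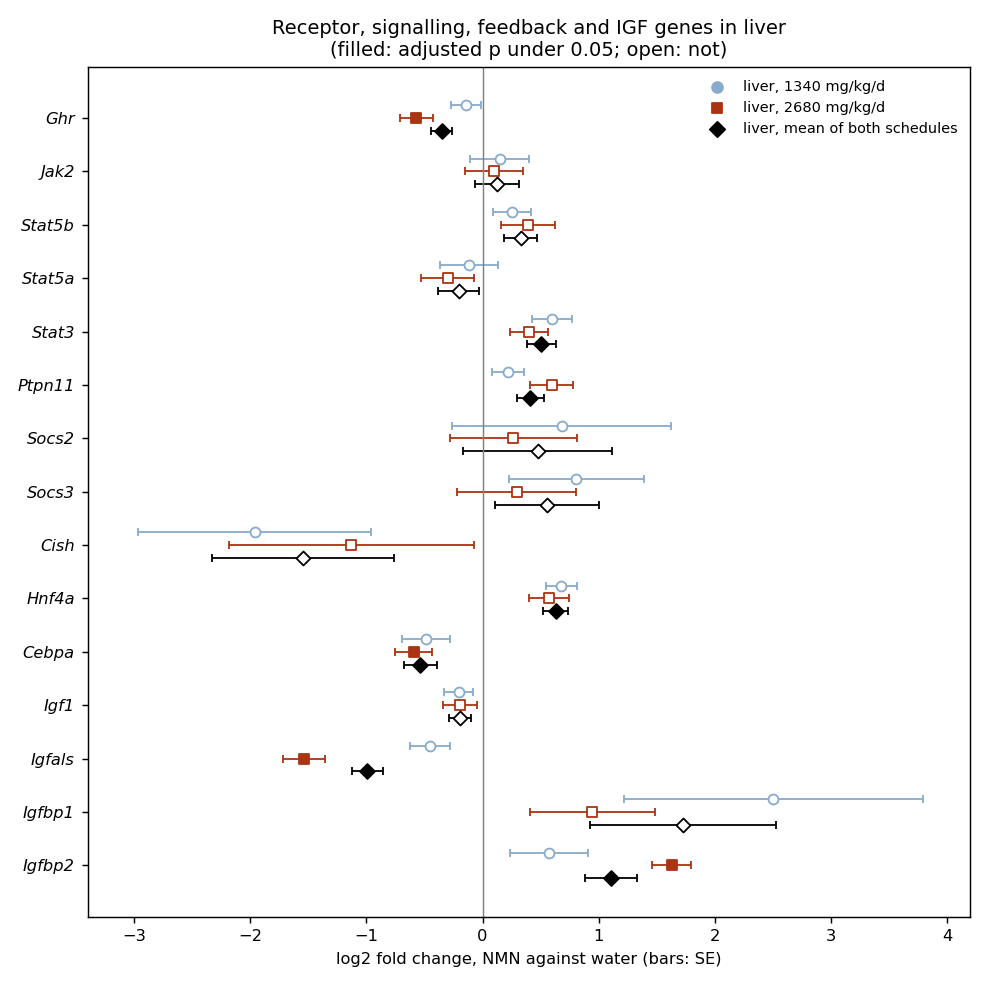
Log2 fold change of NMN against water in liver for genes of growth hormone reception, signalling, feedback, transcription and the IGF axis at 1340 mg/kg/d, at 2680 mg/kg/d and over both, with bars for the SE and filled symbols for an adjusted p under 0.05. Igfals at -1.54 and Igfbp2 at 1.63 are the largest filled values and Igf1 lies between -0.21 and -0.19 in all 3.

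Among 13 regulators of sex-biased liver genes, Hnf4a, the hepatocyte nuclear factor needed for many male genes, rose by 0.63 (log2, adjusted p = 0.00225 from edgeR) over both schedules, and Cebpa, a factor of mature hepatocytes, fell by 0.54 (adjusted p = 0.0284). Cebpa was also called at 2680 mg/kg/d, with a log2 fold change of -0.59 (adjusted p = 0.0489), but there it lost the call in 5 of 6 fits with 1 library left out and over both schedules in 6 of 14. These were the 2 regulators called over both schedules and the 1 called at 2680 mg/kg/d, beside 8.53% and 7.08% of all genes. Bcl6, a repressor more abundant in males, ranged from 3.89 to 75.9 CPM over the 14 livers. Onecut1, an activator more abundant in females, ranged from 1.25 to 19.4 CPM, and neither was called.

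Other genes that are higher in male liver were mostly on the same side as the called members. At 2680 mg/kg/d 15 of 18 tested were lower, with a median log2 fold change of -0.70, and 4 of 18 were called, all lower, beside 4.03% of all tested genes called lower. With 1 library left out that count ranged from 2 to 7, and Susd4 was the only one of the 4 called in all 6 fits. These were Mup3, a urinary protein (11016 ± 1436 CPM with water and 5288 ± 1678 CPM with NMN, SD, n = 3 each), Nudt7, a peroxisomal coenzyme A hydrolase (648 ± 132 and 257 ± 86.4 CPM), Ugt2b38, a glucuronosyltransferase (6.30 ± 1.35 and 1.02 ± 0.875 CPM), and Susd4. Over both schedules 17 of 19 were lower and 7 were called lower, among them Serpina12 and Cyp2u1, beside 4.47% of all genes called lower. At 1340 mg/kg/d 16 of 18 were lower and 0 were called. Of 18 tested genes of the urinary protein family, some of which share sequence, 13 were lower at 2680 mg/kg/d. Mup3, counted above as well, was the only one called, a share near the 4.03% of all genes called lower.

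Among genes higher in female liver, 17 of 23 tested were higher with NMN at 1340 mg/kg/d (median log2 fold change 0.28, 0 called) and 16 of 23 over both schedules (median 0.27). Over both schedules 1 was called higher and 3 lower, beside 4.06% and 4.47% of all genes. Of 21 tested at 2680 mg/kg/d, 11 were higher and 10 lower with NMN, 1 was called higher and 3 lower, beside 3.05% and 4.03% of all tested genes. Cyp39a1, an oxysterol hydroxylase, rose (15.7 ± 1.76 CPM with water, 52.4 ± 6.15 CPM with NMN, SD, n = 3 each, log2 fold change 1.73, adjusted p = 0.00059 from edgeR). Hamp2, a relative of hepcidin, fell, with 197 ± 31.3 CPM in water and 85.5 ± 15.5 CPM in NMN mice. Cyp2c69 was 7.04, 5.43 and 6.07 CPM with water and 0, 0.0498 and 0.0544 CPM with NMN, and Cyp2c40 was 12.8, 14.2 and 17.6 CPM with water and 0.911, 0.199 and 0 CPM with NMN. Both belong to a cluster of similar Cyp2c genes, so reads shared among them were not counted.

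Other lists also differed between the groups. At 2680 mg/kg/d the 9 hepatocyte markers summed to 186390.0, 177950.0 and 168140.0 CPM with water and 128960.0, 144400.0 and 145660.0 CPM with NMN, with 7 of 9 lower and Ttr and Ahsg called lower, beside 4.03% of all genes. The sums overlapped at 1340 mg/kg/d. Red blood cell markers summed to 124 ± 10.9 CPM with water and 58.6 ± 24.3 CPM with NMN at 2680 mg/kg/d (SD, n = 3 each), without overlap. The most abundant of the markers in every liver of that schedule but NMN replicate 3 was Alas2, the erythroid enzyme of heme synthesis, which was called lower (log2 fold change -1.72). The 4 globin genes were not called, with log2 fold changes of -0.01 for Hba-a1, 0.60 for Hba-a2, 0.41 for Hbb-bs and 0.08 for Hbb-bt. In whole liver, fewer cells of a type and less RNA per cell cannot be told apart. Of 12 fasting response genes 11 were higher with NMN at 1340 mg/kg/d and 0 were called, beside 0.0161% of all genes. No member was called in that schedule either. The 12 genes summed to 5318 ± 673 CPM with water and 9267 ± 1641 CPM with NMN (SD, n = 4 each), without overlap. At 2680 mg/kg/d 10 of 12 were higher, the sums overlapped, and Cyp4a14, an ω-hydroxylase induced through PPARα, was the 1 called (log2 fold change 3.21, adjusted p = 0.0421 from edgeR), a call lost in 5 of 6 fits with 1 library left out, beside 3.05% of all genes called higher. Over both schedules 11 of 12 were higher and 3 were called higher, beside 4.06% of all genes, and of these Cyp4a14 (log2 fold change 3.74) and Cyp4a10 (2.28) kept the call in all 14 fits with 1 library left out, whereas Angptl4 lost it in 11. Their part in the members' values was not tested.

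The kidney served as contrast. Hsd3b5, Elovl3 and Mup20 were at or below 3.43 CPM in every kidney, whereas Ghr stood at 83.3 CPM per kb in the 7 water mice, beside 61.1 in liver, where the libraries were scaled separately. Cyp7b1 at 65.4 CPM per kb, Cyp2d9 at 52.7 and Slco1a1 at 42.9 were also well expressed, and Igf1 was low at 1.41 CPM per kb. Summed urinary protein genes averaged 19.7 CPM with water and 23.7 CPM with NMN in the kidneys of 1340 mg/kg/d and 0.244 and 0.330 CPM in those of 2680 mg/kg/d. Kidney markers in turn summed to 15.9 to 20.8 CPM in the livers of 1340 mg/kg/d. Kidney values of Mup20, Elovl3 and Hsd3b5 are too low to be compared between groups.

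At 2680 mg/kg/d, Cyp2d9 in kidney was 167, 155 and 152 CPM with water and 282, 222 and 280.1 CPM with NMN. It rose by a log2 fold change of 0.73 (SE 0.10, adjusted p = 0.0122 from edgeR), with every NMN mouse above every water mouse. That made 1 of 8 tested members called, where 0.118% of 15245 genes were called higher and 7.9% had no overlap in that direction. The call was lost without water replicate 2, water replicate 3 or NMN replicate 3, and in a fit of all 14 kidneys. At 1340 mg/kg/d Cyp2d9 was 127 ± 33.5 CPM with water and 156 ± 28.4 CPM with NMN (SD, n = 4 each), and it was not called.

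Cyp4a12a in kidney was 105, 46.4, 68.0 and 57.6 CPM with water and 18.7, 12.9, 21.5 and 31.2 CPM with NMN at 1340 mg/kg/d. The highest NMN mouse was below the lowest water mouse, a pattern held by 2.79% of genes (two-sided p = 0.0286 by exact permutation, and 4 against 4 cannot give a lower one). The log2 fold change was -1.71 (SE 0.35), but over all genes the adjusted p was 0.177 in edgeR. The main edgeR fit called 0 of 8 members, beside 0.12% of all 14972 genes. At 2680 mg/kg/d the water mice were 91.2, 29.7 and 42.3 CPM and the NMN mice 30.4, 28.6 and 49.9 CPM, with overlap.

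**Figure D5:**
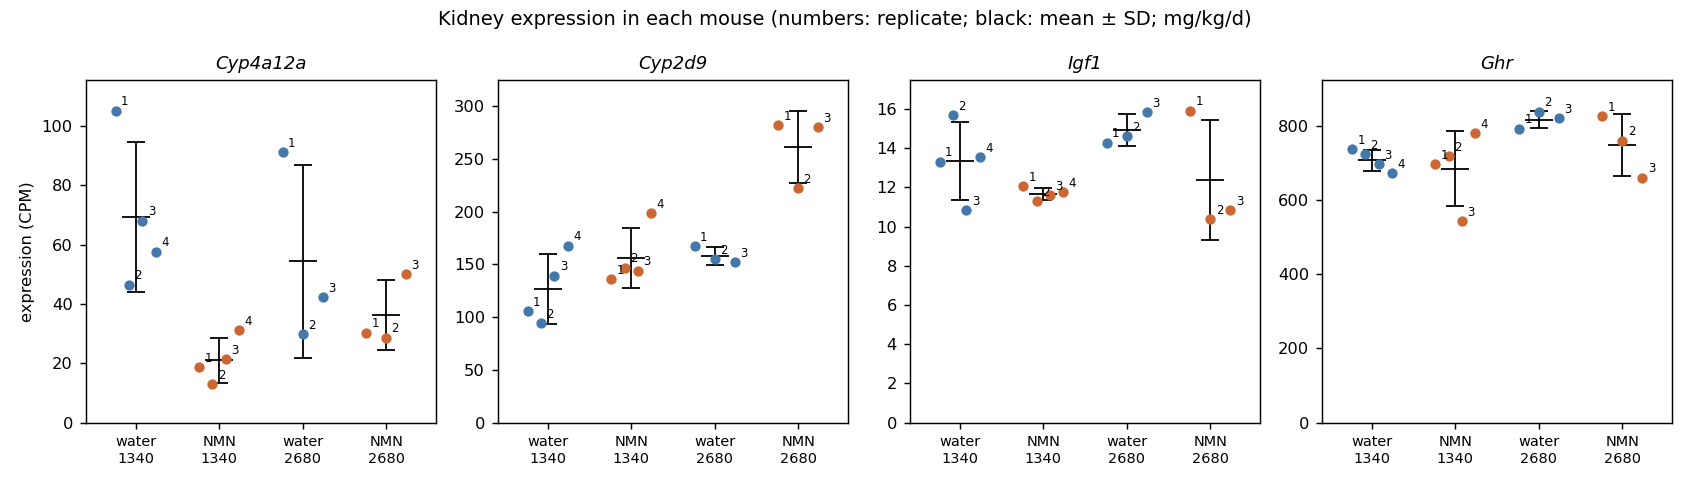
Kidney expression of Cyp4a12a, Cyp2d9, Igf1 and Ghr in each mouse, in CPM on a linear axis from 0, with numbers for the replicate and black marks for the mean ± SD of 4 or 3 mice. Cyp4a12a in NMN mice of 1340 mg/kg/d lies below all water mice of that schedule, and Cyp2d9 in NMN mice of 2680 mg/kg/d lies between 222 and 282 CPM, above all water mice.

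Ghr in kidney was 817 ± 23.2 CPM with water and 748 ± 83.0 CPM with NMN at 2680 mg/kg/d (SD, n = 3 each), a log2 fold change of -0.12 (SE 0.10), and Igf1 had -0.26 (SE 0.16). Over both schedules 0 of 9 tested members were called in edgeR, where 1.39% of 15989 genes were. Beside 1987 of all these genes, 3 members had an unadjusted p under 0.05. These were Cyp2d9 (log2 fold change 0.51, adjusted p = 0.0603), Cyp4a12a (-1.15, adjusted p = 0.13) and Igf1 (-0.23, adjusted p = 0.398). No member differed between schedules past the threshold, which 0.00625% of genes did. None had an unadjusted p under 0.05 for that difference, beside 738 of 15989 genes. Among genes that androgen raises in kidney, 2 of 7 were called lower over both schedules, Kap, an abundant tubule protein (log2 fold change -0.44, adjusted p = 0.0493), and Cyp4b1 (-0.35, adjusted p = 0.0391), beside 0.876% of all genes called lower. Kap lost the call in 10 of 14 fits with 1 library left out and Cyp4b1 in 9 of 14.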

How the data were processed

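RNA was sequenced from 28 liver and kidney libraries. The authors mapped reads with STAR, counted them per gene with HTSeq without regard to strand and deposited raw counts per gene for each library. The build named in the methods could not be matched to a mouse assembly, so identifiers were joined to symbols through the annotation given here (53229 with version, 1180 without, 37 unmatched). Rows naming no gene held 18.6% to 29.3% of reads and were left out.

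NMN and water libraries of each organ and schedule were compared with edgeR 4.0.16 (R 4.3.3; TMM scaling, filterByExpr, robust quasi-likelihood test), and both schedules in 1 model per organ. P-values were adjusted by the Benjamini-Hochberg method over all tested genes, and genes with an adjusted p under 0.05 are called. CPM values use TMM library sizes. The fitting code was tested on simulated data. The text names the 10 members, the called or central genes of the other lists, and for likeness genes among the highest and lowest correlations, of which 1 is not reported here. Members and lists were chosen with earlier results of these data known. Alternatives were other scalings, filters of low counts, DESeq2 1.42.0, a stricter threshold, a replicate block, a fit of all libraries of an organ and leaving out libraries. Counts limit precision at 12688324 to 33872983 counted reads per library. Among libraries of the same organ, schedule and treatment, no pair agreed within sampling noise.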

Additional observations from a re-analysis of the deposited data

Results flagged for a closer look

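In the liver of water replicate 1 at 1340 mg/kg/d, Cyp7b1 was 569 CPM, Elovl3 1126 CPM and Selenbp2 3079 CPM, each far above the other 3 water mice of its group by the gap between the highest value and the next. Of 38 groups of 4 examined in this way 3 were marked, and chance marks about 1 in 20 groups. All 3 come from 1 library, and the summed clock genes of that library were the lowest of its group. The part of that difference in the values was not tested.

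Cyp2d9 at 2680 mg/kg/d was lower with NMN in every liver and higher with NMN in every kidney, with log2 fold changes of -0.84 and 0.73. The difference between the organs was not tested.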

How the results depend on the processing

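The number of members called depended on the processing as follows. With an adjusted p under 0.01 and a fold change over 2 it was 1 in liver at 2680 mg/kg/d, 1 in liver over both schedules and 0 in kidney at 2680 mg/kg/d. Without the libraries numbered 1 it was 3 in liver at 2680 mg/kg/d, Hsd3b5, Slco1a1 and Cyp2d9. DESeq2 called 1 member for the difference between schedules in liver, 1 in kidney at 1340 mg/kg/d and 2 in kidney over both schedules. Without a filter the count was 2 in kidney over both schedules and 1 for the kidney difference, without the robust option 1 in kidney at 1340 mg/kg/d and 2 over both schedules, and in the fit of all 14 kidneys 0 at 2680 mg/kg/d. With 1 library left out it ranged from 1 to 5 in liver at 2680 mg/kg/d, from 2 to 4 in liver over both schedules (2 without water replicate 3 of 2680 mg/kg/d), and from 0 to 1 in kidney at 2680 mg/kg/d and over both schedules. The causes were not tested.

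Counts over all genes moved more. Under the stricter threshold they were 0, 135, 112 and 6 in liver (1340, 2680, both schedules, difference) and 2, 3, 7 and 0 in kidney. Without a filter they were 44 in liver at 1340, 1785 at 2680 and 71 for the difference, and 269, 514, 733 and 106 in kidney. DESeq2 called 84, 1480 and 106 in liver (1340, 2680, difference) and 165, 244, 478 and 9 in kidney. Without the libraries numbered 1 the counts were 15, 488 and 720 in liver (1340, 2680, both) and 196 and 2 in kidney (2680, difference). The fit of all 14 libraries called 6 in liver at 1340 and 35 in kidney at 2680 mg/kg/d. Without the robust option 5 were called in kidney at 1340 mg/kg/d and 0 for the difference, which was also 0 with upper quartile scaling and with at least 10 counts in every library. With 1 library left out the ranges were 0 to 18, 211 to 1308, 629 to 1465 and 7 to 25 in liver, and 5 to 67, 3 to 191, 96 to 344 and 0 to 1 in kidney.

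Replicate numbers are shared by NMN and water. Correlations of same-numbered deviations ran from -0.0973 to 0.151 and were not all over 0.1 in any set. The numbers were therefore not taken as pairs, though these values cannot exclude pairing. With a replicate block 16 genes were called in liver at 1340 mg/kg/d, 75 in kidney at 1340, 92 in kidney at 2680 and 2 for the kidney difference, and 1 member in kidney over both schedules, Cyp2d9. Each of the 3 livers of 2680 mg/kg/d per group correlated best with its own number, a hint from the data and not from the design.

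Some uncalled log2 fold changes turned sign. With the replicate block Elovl3 was 0.74 in liver at 1340 mg/kg/d and Cyp4a12b 0.0017 over both. Without the libraries numbered 1, Cyp4a12a was 0.31 and Elovl3 1.92 in liver at 1340, Cyp4a12a was 0.13 in kidney at 2680, and in liver over both schedules Cyp7b1 was 0.013, Elovl3 0.80, Jak2 -0.084 and Socs2 -0.51. With 1 library left out, ranges that crossed 0 were -0.38 to 0.32 for Cyp4a12a, -1.04 to 0.0014 for Cyp7b1 and -0.58 to 1.84 for Elovl3 in liver at 1340, -0.10 to 0.48 for Selenbp2 in liver at 2680, -0.11 to 0.048 for Ghr in kidney at 1340 and -0.88 to 0.016 for Cyp4a12a in kidney at 2680. Over both schedules in liver they were -0.14 to 0.19 for Cyp4a12b, -0.38 to 0.14 for Cyp7b1, -0.94 to 0.28 for Elovl3, -0.21 to 0.10 for Mup20, -0.53 to 0.015 for Selenbp2 and -0.021 to 0.67 for Socs2. Of 1005 other values under settings that leave out no single library, 923 kept their direction and side of the threshold.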
